A study of Homo sapiens with 3 samples.

Results

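The 271 best-ranked of 2710 H3K27ac regions in H1299 cells were examined, which is the best-ranked 10% of the authors' list, together with the protein-coding genes they lie in or beside. The members were chosen by measured values of the H3K27ac library, through the rank that the authors deposited, so their rank, length, number of joined peaks and H3K27ac scores are given as a description and were not tested. A region is a stretch of the genome in which 1 or more neighbouring H3K27ac peaks were joined, and the other 2439 regions are those ranked lower. The signal behind the rank and the point at which the authors divided super-enhancers from other enhancers were not used here, so the 271 are candidates by rank and not the authors' own super-enhancer set.

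H1299 is an established human lung cancer cell line, labelled here as lung adenocarcinoma cells, and the labels give no treatment and no change to its genome. CUT&RUN, in which a nuclease tethered by an antibody cuts out the DNA at the antibody's target for sequencing, was run with an antibody to the transcription factor SP1, to H3K27ac or to nothing specific (IgG). Each had 1 library, and that with IgG is not analysed here, so the values have no control background beside them. With 1 library per antibody there is no replicate spread and no test between conditions. The intervals given are 95% Wilson intervals for a share of regions or genes, which cover counting error only and treat regions as independent. Sequencing depth is unknown, since the lists hold no read counts.

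H3K27ac, the acetylation of lysine 27 of histone H3, marks active promoters and enhancers. Super-enhancers are clusters of enhancers lying close together that carry an unusually large share of such marks, and they often lie at genes that define a cell's identity or, in cancer cells, at oncogenes. SP1 is a zinc-finger transcription factor that binds GC-rich sequence, the GC box, at the promoters of many broadly expressed genes and also at enhancers.

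Few regions of the list, members or others, lay within 2500 bases of an annotated gene start. Whether peaks near starts were left out when the list was built is not known here, so this describes the list only. The RefSeq start table (GRCh38.p14) held starts for 15843 of 20037 protein-coding genes. A start lay within 2500 bases of 5 of the 244 members on chromosomes with starts (2.05%, interval 0.878 to 4.71%) and of 8 of 2229 other regions (0.359%, 0.182 to 0.707%). These intervals did not overlap, with the larger share in the members, which are also longer (median 522 against 223 bases). Within 10000 bases the shares were 9.02% and 8.52%, and their intervals overlapped.

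The promoter windows of 4 candidate genes are printed because they connect a member with a start: that of SLC4A7 is the only protein-coding window overlapped by a member, and those of TOM1L2, PCBD2 and PRPSAP2 hold an SP1 summit while an SP1 summit also lies in the gene's member. Each window runs from 250 bases before to 50 bases after a RefSeq start, 5′ to 3′ on the gene's strand, and capitals mark GC boxes (GGGCGG on either strand). SLC4A7 (a sodium bicarbonate cotransporter) has the window chr3:27484335-27484634 on the minus strand, TOM1L2 (an endosomal trafficking protein) chr17:17972351-17972650 on the minus strand, PCBD2 (a pterin dehydratase) chr5:134904881-134905180 on the plus strand and PRPSAP2 (a partner of phosphoribosyl pyrophosphate synthetase) chr17:18857818-18858117 on the plus strand.
SLC4A7: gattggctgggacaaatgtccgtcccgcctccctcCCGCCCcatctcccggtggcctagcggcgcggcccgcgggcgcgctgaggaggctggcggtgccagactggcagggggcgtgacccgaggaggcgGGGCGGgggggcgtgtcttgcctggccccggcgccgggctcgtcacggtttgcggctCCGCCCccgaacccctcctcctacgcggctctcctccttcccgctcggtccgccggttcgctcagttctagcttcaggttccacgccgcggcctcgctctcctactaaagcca
TOM1L2: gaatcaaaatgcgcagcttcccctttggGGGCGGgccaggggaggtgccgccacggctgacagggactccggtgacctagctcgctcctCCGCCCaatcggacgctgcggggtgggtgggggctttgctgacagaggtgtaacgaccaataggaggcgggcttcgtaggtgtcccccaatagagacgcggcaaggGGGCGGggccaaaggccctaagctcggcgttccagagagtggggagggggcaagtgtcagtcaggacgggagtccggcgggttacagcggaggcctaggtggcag
PCBD2: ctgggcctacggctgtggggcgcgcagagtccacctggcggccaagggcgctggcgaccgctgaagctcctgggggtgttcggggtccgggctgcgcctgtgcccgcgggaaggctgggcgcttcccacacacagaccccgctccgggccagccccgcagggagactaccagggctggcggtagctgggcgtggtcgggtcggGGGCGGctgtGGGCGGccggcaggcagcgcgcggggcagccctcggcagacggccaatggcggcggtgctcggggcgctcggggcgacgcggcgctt
PRPSAP2: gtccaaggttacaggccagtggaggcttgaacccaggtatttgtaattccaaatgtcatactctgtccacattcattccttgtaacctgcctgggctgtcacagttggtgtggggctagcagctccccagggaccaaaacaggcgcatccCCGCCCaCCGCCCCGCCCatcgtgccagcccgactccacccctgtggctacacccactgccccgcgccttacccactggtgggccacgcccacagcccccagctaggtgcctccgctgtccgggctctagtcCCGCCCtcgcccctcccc

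The 4 windows hold 3, 3, 2 and 4 GC boxes in that order. The SP1 summit lay 248 bases before the start in TOM1L2 with a score of 19.2, 172 bases before it in PCBD2 with 7.32 and 235 bases before it in PRPSAP2 with 25.1. All scores are those the authors deposited, on a −log10 scale of p or q, and which of the pair is not stated. In SLC4A7 the SP1 summit, with a score of 4.45, lay in the member between its H3K27ac summits and outside the window. The GC box was found in 58.3% of the 15843 windows, counting 1 window per gene with a start, so its presence in these 4 sets none of them apart. Starts of chromosome 8, which holds 27 members, were not in the table.

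Members differed widely in length. Of the 271 members, 98 had more than 1 joined peak, which is every such region in the list: 83 had 2 peaks, 11 had 3 and 4 had 4. The other 173 consisted of 1 peak. Regions with more than 1 peak had length quartiles of 1724, 6849 and 10107 bases, and those of 1 peak 335, 411 and 498 bases. The longest, at rank 4, spans 28.6 kb, the shortest 219 bases. Together the members cover 755 kb, 54.7% of the length of the whole list, and the regions of more than 1 peak make up 89.8% of the members' length. A member's highest summit score ranged from 3.13 to 275 with a median of 6.13, against a median of 4.89 and a maximum of 14.4 in the other regions. The scores of 56 members (20.7%) lay under the median of all H3K27ac summits, 5.01, so a high rank did not need a high peak.

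**Figure D1:**
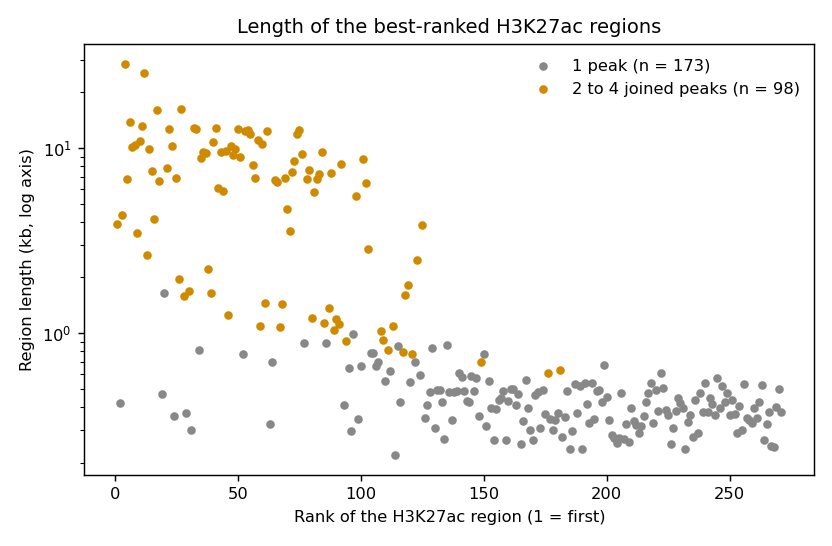
Length of each of the 271 members (vertical axis, kb, logarithmic) against its rank (horizontal axis, 1 is first), with grey points for regions of 1 peak (n = 173) and orange points for regions of 2 to 4 joined peaks (n = 98). Orange points dominate the first ranks and reach 28.6 kb, and the last ranks hold grey points only, none longer than 1647 bases.

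The rank limit fell among short regions of 1 peak without an SP1 summit. The 5 just inside it have KIF21A, SLC38A2, HFE, MEI4 and GALC as nearest genes, with MEI4 and GALC over 100 kb away. Their lengths were 245, 244, 398, 498 and 377 bases and their highest H3K27ac scores 6.66, 9.28, 3.97, 4.63 and 5.14. The 5 just outside have DEFB115, UQCRFS1, NT5E, PENK and TPTE as nearest genes, with lengths of 373, 435, 238, 331 and 459 bases and scores of 4.38, 3.78, 7.23, 5.71 and 5.94. The values on both sides overlap.

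Over 100 kb from any end of such a gene lay 125 members (46.1%, 40.3 to 52.1%) and 960 other regions (39.4%, 37.4 to 41.3%), against 40.0% of the whole list, and the intervals overlapped. Between genes and over 100 kb from a gene end lay 104 members (38.4%, 32.8 to 44.3%) against 695 other regions (28.5%, 26.7 to 30.3%), a class in which the intervals did not overlap. A further 21 members lay deep inside a long gene, over 100 kb from its ends (7.75% against 10.9%), 75 between genes within the limit (27.7% against 29.7%) and 71 in a gene within the limit (26.2% against 31.0%). A protein-coding gene was overlapped by 92 members (33.9%, 28.6 to 39.8%) and 1020 other regions (41.8%, 39.9 to 43.8%), which is 41.0% of the whole list. Genes holding a member had a median span of 165 kb, close to the 166 kb of genes holding another region and above the 24.1 kb of all protein-coding genes.

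An SP1 summit lay in 55 of the 271 members (20.3%, 15.9 to 25.5%), against 2.66% of the whole list and 17 of the other 2439 regions (0.697%). Members are longer, so the same was computed for members of 1 peak only, in which the share was 16.2%, and for members of 300 to 700 bases, in which it was 13.4%. The other regions, with a median of 223 bases, were not restricted by length, so these shares do not remove the difference in length. Per 10 kb of region, members held 0.941 SP1 summits, other regions 0.272 and the whole list 0.638. That rate was 3.64 in members of 1 peak and 0.634 in those of more. Along the rank the share was 38.2% (26.5 to 51.4%) at ranks 1 to 55, 29.6% at ranks 56 to 109, 13.0% at ranks 110 to 163, 13.0% at ranks 164 to 217 and 7.41% (2.92 to 17.6%) at ranks 218 to 271. The number of members with more than 1 peak fell along the same groups from 47 to 40, 9, 2 and 0. An SP1 region overlapped 56 members (20.7%, 16.3 to 25.9%), against 2.92% of the whole list.

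**Figure D2:**
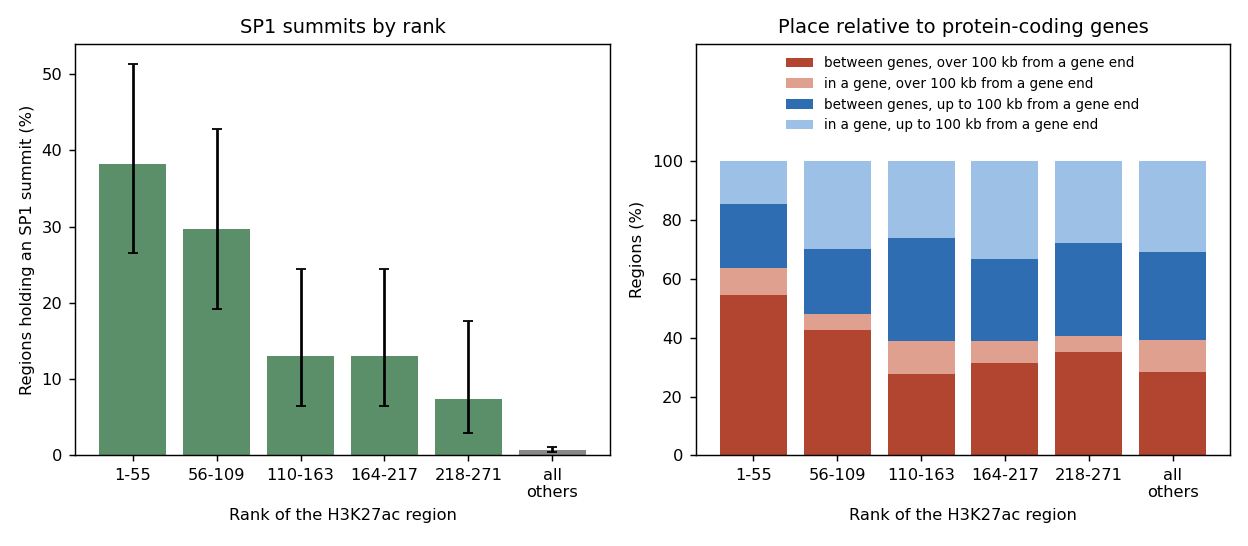
Left, share of regions holding an SP1 summit (vertical axis, %) in 5 rank groups of the members and in all other regions, with 95% Wilson intervals. The bars go from 38.2% at ranks 1 to 55 to 7.41% at ranks 218 to 271, and the other regions stand at 0.697%. Right, the place of the same regions relative to protein-coding genes (vertical axis, % of regions, stacked to 100), in which 63.6% of ranks 1 to 55 lay over 100 kb from a gene end.

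Members with an SP1 summit were counted by place. Between genes and over 100 kb from a gene end, 35 of 104 members held an SP1 summit (33.7%, 25.3 to 43.2%). Within 100 kb it was 12 of 75 members between genes (16.0%, 9.40 to 25.9%) and 8 of 71 in a gene (11.3%, 5.82 to 20.7%). None of the 21 members deep in a long gene held one, and the interval reaches 15.5%. Among members of 1 peak, which differ little in length, 22 of 61 far between genes held an SP1 summit (36.1%, 25.2 to 48.6%), against 2 of 48 between genes within the limit (4.17%, 1.15 to 14%) and 4 of 51 in a gene within it (7.84%, 3.09 to 18.5%). Of those 22, 13 had an H3K27ac score of 20 or more. Among members of 1 peak with a score under 10, an SP1 summit lay in 5 of 42 far between genes (11.9%, 5.19 to 25%) and in 3 of 94 within 100 kb (3.19%, 1.09 to 8.97%), and the intervals overlapped. Members of more than 1 peak showed no such order, with 13 of 43 far between genes (30.2%) and 10 of 27 near (37.0%), and their intervals overlapped.

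**Figure D3:**
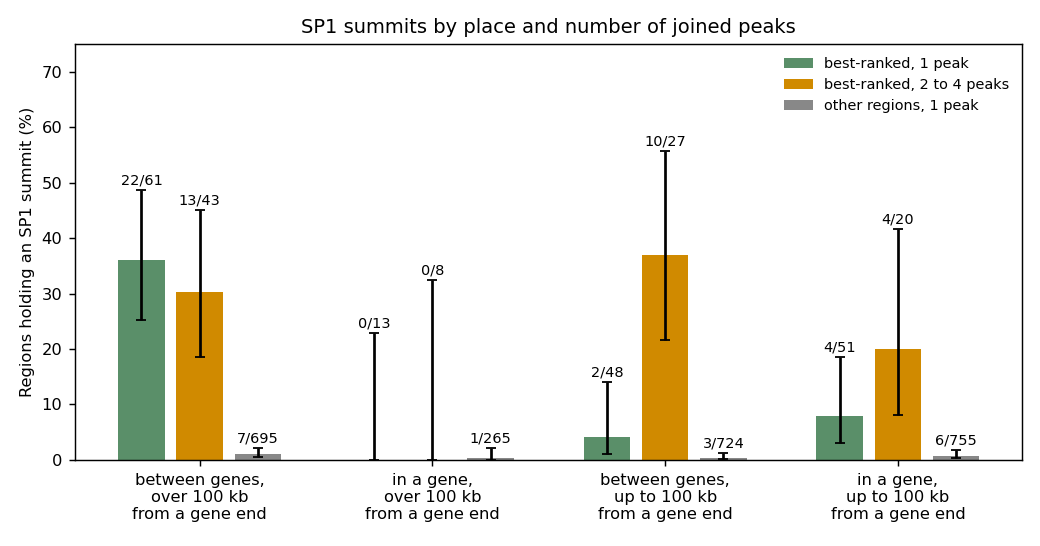
Share of regions holding an SP1 summit (vertical axis, %) by place relative to protein-coding genes, for members of 1 peak (green), members of 2 to 4 peaks (orange) and other regions (grey), with 95% Wilson intervals and the counts above each bar. The green bar far from genes stands at 36.1% and the green bar between genes within 100 kb at 4.17%.

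The members with the highest H3K27ac peaks of the list all held an SP1 summit, and most lay far from genes. All 19 members with an H3K27ac score of 20 or more held an SP1 summit, 16 of them between genes over 100 kb from a gene end and 14 of 1 peak, and no region outside the members reached 20. The other 19 of the 35 far members with SP1 scored under 20. Without the 19 members scoring 20 or more, an SP1 summit lay in 36 of 252 members (14.3%). It lay in 17.4% of those over 100 kb from a gene end and in 11.9% of those within it. At rank 1 (chr1:125180084-125183968), with LINC02798 as the nearest protein-coding entry 3717 kb away, the highest summits scored 275 for H3K27ac and 268 for SP1. Rank 2 (chr16:46390499-46390916), 188 kb from SHCBP1, had 224 and 226 at the same base. Rank 3 (chr17:26881233-26885557), 409 kb from WSB1, had 202 and 193. A group of 4 members within 1 Mb of each other has WSB1 as nearest gene (ranks 3, 24, 31 and 96) and all 4 hold an SP1 summit, as do all 4 with ZNF716 as nearest gene (ranks 126, 169, 202 and 209). The nearest gene lay over 2500 kb away for each of the latter, so its name is a landmark only. The 16 far members scoring 20 or more lay at a median of 1032 kb from a gene end. Whether their signal is particular to either antibody was not tested, since the IgG library is not analysed here. No annotation of centromeres or repeated sequence was used, so whether these members lie in such sequence is not given. Their scores alone do not make them enhancers.

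The 4 members of 4 joined peaks, at ranks 4, 6, 8 and 12, all lay between genes over 100 kb from a gene end and all held SP1. Rank 4, with LOC124904970 as nearest gene, held 4 SP1 summits in 28.6 kb, with highest scores of 14.6 for H3K27ac and 10.2 for SP1. Rank 6, 189 kb from the defensin gene DEFB115, had 53.0 and 41.5, rank 8, 111 kb from the potassium channel gene KCNJ18, 6.96 and 5.97, and rank 12, 231 kb from FOXD4L6, 5.99 and 5.21. All 4 had lower highest scores than ranks 1 to 3. Deep inside FMNL2, a formin that nucleates actin filaments, rank 13 had 3 H3K27ac summits of 7.07, 9.11 and 9.25 and no SP1 summit.

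Scores of both antibodies ran in parallel in the far members. Over the 35 far members with an SP1 summit, Spearman's rho of the highest scores was 0.947, and over the 20 near ones 0.471, each a description across regions of the same pair of libraries. The highest summits of both libraries lay within 50 bases of each other in 22 of the 35 far members and in 2 of the 20 near ones, at a median distance of 29 and 547.5 bases. The median SP1 score was 14.7 in the far members (4.42 to 268) and 5.94 in the near ones (3.86 to 54.0), with median H3K27ac scores of 15.5 and 8.0. Whether the same positions carry signal in the IgG library was not tested.

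**Figure D4:**
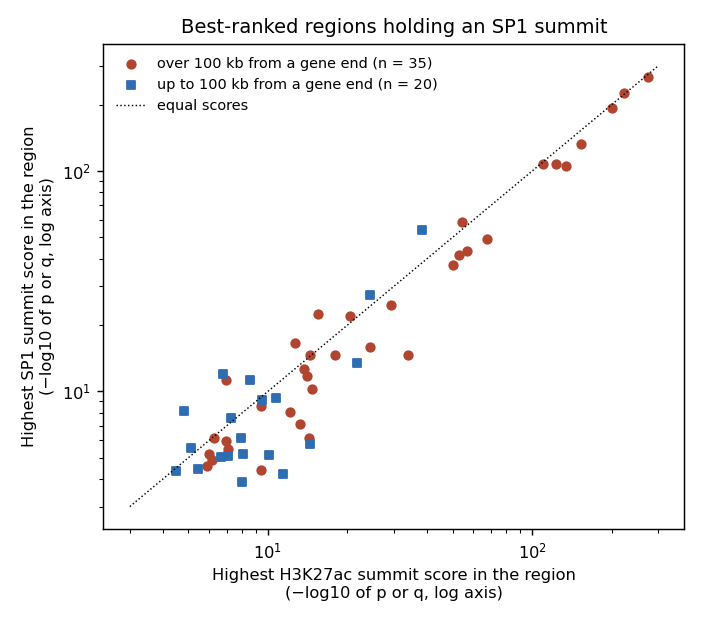
Highest SP1 summit score against highest H3K27ac summit score in the 55 members holding an SP1 summit (both axes −log10 of p or q, logarithmic), with circles for members over 100 kb from a gene end (n = 35), squares for those within it (n = 20) and a dotted line of equal scores. The circles follow the line up to 275 and 268, and the squares lie mostly at the low end.

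As candidates, 157 protein-coding genes (0.784% of 20037) contain a member, at any distance from their ends, or have the end nearest to a member within 100 kb: 88 contain one and 69 have the nearest end. Distance is the only link between a member and its candidate gene. Of 130 pairs with a known start, 90 members lay downstream of the nearest start and 39 upstream, at a median of 38.0 kb. A member inside a gene lies downstream of the gene's outermost start by definition. The split thus follows in part from how candidates were chosen, and it is not given for other regions. The 7 genes with more than 1 member were RAD51B, PHLDA1, VMP1, ACTN4, RP1, BLID and PLCB4.

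Of the 24 adhesion and actin genes listed, 3 were candidates, a count that is no independent evidence since ITGB1 was known from earlier results of these data when the list was drawn up. The region at rank 10, chr10:32971460-32982386, lies 13.2 kb upstream of ITGB1, the beta 1 subunit of integrin receptors for extracellular matrix. Its H3K27ac summits scored 8.03 and 5.39 and its SP1 summit 5.18. ACTN4, an actin crosslinker, contains ranks 18 and 205. Rank 18 lies 3.89 kb downstream of a start with H3K27ac scores of 6.63 and 4.28 and no SP1 summit. Rank 205 scored 7.93, with an SP1 summit of score 26.4 lying 729 bases outside it and within the gene. An SP1 summit thus lay inside the ITGB1 region and inside neither of those of ACTN4, although the summit beside rank 205 had the higher score.

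Signalling genes gave 4 more list members. RGS20, which speeds the return of G protein alpha subunits to their inactive state and is the gene named in the study's title, contains rank 61 with H3K27ac scores of 9.15, 5.69 and 7.64 and no SP1 summit. RGS17, of the same family, contains rank 125, 3825 bases long, with scores of 3.92 and 3.16. No other of the 21 RGS genes on the list was a candidate. CDK6, a kinase of the G1 phase, contains rank 104, 67.3 kb downstream of a start, with a score of 5.73. FGFR1, a growth factor receptor, has its end 35.2 kb from rank 222, which scored 4.73. Neither rank 104 nor rank 222 holds an SP1 summit. ERRFI1, an inhibitor of the EGF receptor, is on none of the lists and lies 64.0 kb from rank 15, whose H3K27ac summits scored 14.4, 5.13 and 5.87 and whose SP1 summit scored 5.76.

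In all, 7 of the 267 list genes (2.62%) were candidates, against 0.784% of all protein-coding genes. The lists were drawn up with earlier results of these data known, and RGS20 and ITGB1 are among the 7. The difference is therefore no independent evidence. Candidate genes are also long, with a median span of 104 kb against 24.1 kb of all protein-coding genes, and gene length was not taken into account. Lists of this size expect few or none at that share, so the absence of candidates from 11 of 15 lists says nothing particular about them. Those are AP-1 (12 genes), Hippo and TEAD (18), TGF-beta signalling (19), extracellular matrix (22), mesenchymal genes (14), NF-kappaB and cytokines (15), coactivators (17), ribosomal proteins (22), and the markers of lung epithelium (16), blood cells (12) and neuron or liver (13). Each of the 11 had at least 1 gene at a lower-ranked region, such as FOS, SMAD3, FN1, CD44 and the lung epithelial FOXA2. Lower-ranked regions had 1142 of the 15843 genes with a start as candidates, so these genes say nothing particular about their lists either. Markers of other cell types were among these too, namely PTPRC of blood cells and RBFOX3 and SNAP25 of neurons, as was the ribosomal gene RPS14.

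RAD51B, a protein of homologous recombination, had the most members, 5 within 594 kb of chromosome 14. Rank 5 (chr14:68140143-68146944) lies 317 kb downstream of the start with scores of 11.2 and 6.65, and ranks 100, 116 and 128 scored 10.6, 6.53 and 6.91. Rank 182, just past the gene's end, scored 5.27. No SP1 summit lay in any of the 5. A further 3 lower-ranked regions also lie in the gene.

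PHLDA1, encoding a pleckstrin homology-like protein, had ranks 7, 16 and 179 within 76.6 kb. Rank 7 (chr12:75943914-75954077) scored 9.08 and 11.4 for H3K27ac and 4.21 for SP1. Rank 16 scored 4.53 and 5.55, and rank 179 scored 6.43, both without an SP1 summit. VMP1, a membrane protein of autophagy, contains rank 9 with 3 summits of 4.29, 12.4 and 6.57 and rank 95 with 8.79. Neither holds an SP1 summit. ZNF217, a zinc-finger transcription factor, is nearest to rank 94, which holds an SP1 summit of 5.06 and H3K27ac summits of 5.87 and 6.62, and to rank 11, 142 kb away, which has an SP1 summit 35 bases outside it. An SP1 summit of 13.5 also lies at a start of ZNF217. These loci differ: an SP1 summit lies inside 1 of 3 members of PHLDA1 and inside no member of RAD51B, VMP1 or ACTN4. At ACTN4 1 lies 729 bases from rank 205.

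**Figure D5:**
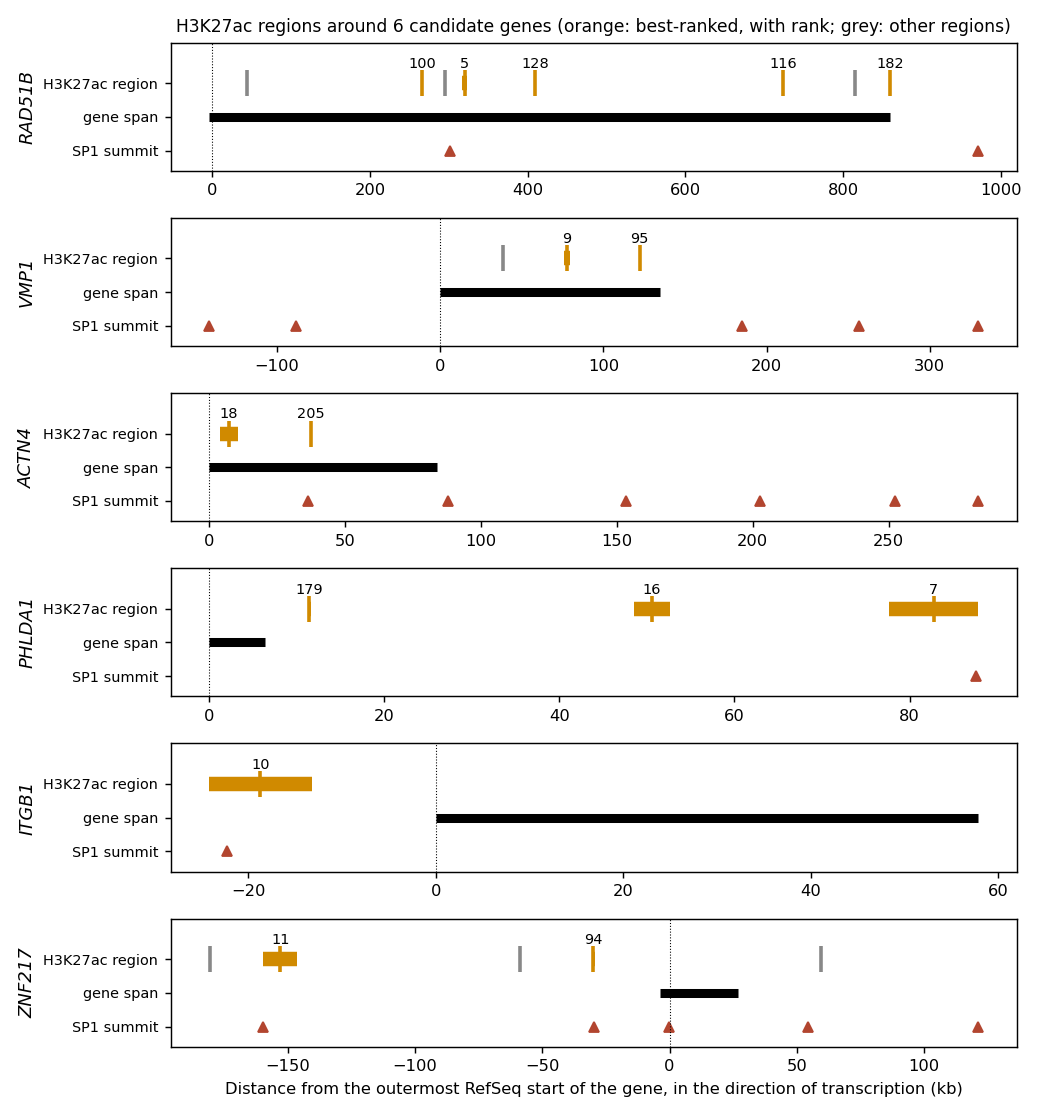
H3K27ac regions (upper row, orange with rank for members, grey for others, each marked at its centre by a tick that is not to scale), gene span (black) and SP1 summits (triangles) at RAD51B, VMP1, ACTN4, PHLDA1, ITGB1 and ZNF217, against distance from the outermost RefSeq start in the direction of transcription (horizontal axis, kb). The RAD51B panel shows 5 members and the PHLDA1 panel 3.

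Of the 30 best-ranked near members, 11 held an SP1 summit and 19 did not. FGD6, an exchange factor for CDC42, contains rank 14, with H3K27ac scores of 7.05 and 4.70 and an SP1 score of 5.07. No SP1 summit lay in the members at HLA-E, an MHC class I molecule read by natural killer cells (rank 22, scores 3.81 and 4.02), or KRT80, a keratin (rank 26, 3 summits up to 7.57). The same held for the members at GBE1, the glycogen branching enzyme (rank 28, 9.40 and 9.33), and TXNRD1, thioredoxin reductase (rank 59, 9.72 and 8.34). Outside these members, an SP1 summit lay near a start of GBE1 (score 9.54) and of TXNRD1 (6.36). The members at the synaptic genes SYT1 (rank 35, highest score 13.2) and PCLO (rank 60, 7.91) held no SP1 summit either. Nor did those at the kinase gene MAST1 (rank 32, 5.94), the glycosyltransferase gene MGAT5 (rank 57, 8.76) and VGLL3, encoding a TEAD cofactor (rank 58, 6.98). The remaining near regions of the first 30 without SP1 lie at KCNJ12, CLINT1, RNF145, DERA, ETNK1 and ASPH (ranks 27, 33, 37, 47, 48 and 52), with highest scores between 5.18 and 14.7.

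An SP1 summit lay in the near members at MED13, a subunit of the Mediator kinase module (rank 69, H3K27ac 5.09, SP1 5.56), FCGBP (rank 75, 9.47 and 9.10), NRG2, a neuregulin growth factor (rank 108, 7.27 and 7.56), POU5F1, a pluripotency factor (rank 109, 4.83 and 8.11), TBC1D28 (rank 113, 7.91 and 6.13), PHF20 (rank 142, 8.53 and 11.3) and MAP4K3, a kinase (rank 210, 10.1 and 5.14). TOM1L2 (rank 64) had 7.96 and 3.86, PCBD2 (rank 114) 10.7 and 9.30, and PRPSAP2 (rank 232) 4.48 and 4.35. The near members with the highest SP1 scores have uncharacterised nearest genes: LOC124905368 (rank 67, 38.3 and 54.0), LOC101929601 (rank 148, 24.4 and 27.4), LOC124903442 (rank 38, 21.7 and 13.4) and LOC102724560 (rank 56, 6.75 and 11.9).

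SP1 at the starts of candidate genes was near the background. A summit lay within 1000 bases of a start in 21 of 122 candidate genes (17.2%, 11.5 to 24.9%), against 14.9% of the 15843 genes and 12.2% (10.4 to 14.2%) of the 1142 candidate genes of other regions. Only 4 candidates had SP1 both at a start and in a member: TOM1L2, PCBD2, PRPSAP2 and ZNF217. That of PCBD2 is the member beside an rRNA gene or mitochondrial pseudogene. The motifs of the windows were also near the background. The GC box (GGGCGG) was in 62.3% of candidate windows (53.4 to 70.4%) against 58.3%, the AP-1 motif (TGANTCA) in 5.74% against 5.70%, the TEAD motif (GGAATG) in 13.1% against 11.8% and the TATA box (TATAAA) in 9.84% against 9.75%, each searched on both strands. A match is a description and not a binding site.

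In all, 12 microRNA genes lay within 20 kb of 9 members. The share among the other regions or the whole list is not given here, so the count says nothing particular about the members. The mature sequences (RefSeq, GRCh38.p14) of 4 of them, 1 arm each, are printed as examples chosen after their positions were seen, each 5′ to 3′ with its seed (bases 2 to 8) in capitals.
hsa-miR-21-5p: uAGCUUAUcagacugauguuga
hsa-let-7a-5p: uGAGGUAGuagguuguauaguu
hsa-miR-100-5p: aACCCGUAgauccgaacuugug
hsa-miR-770-5p: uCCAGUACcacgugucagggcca

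The 4 seeds differ. MIR21, a microRNA gene raised in many tumours, lies 11.1 kb from rank 95 in VMP1. MIRLET7A2 and MIR100 lie 11.5 and 5.83 kb from rank 134, which is in the long noncoding RNA gene MIR100HG and scored 7.75. MIR10526, not printed, lies 5.99 kb from the same member. MIR770 lies 9.90 kb from rank 244, in MEG3. None of these members holds an SP1 summit, and the files hold no expression values, so no level of any microRNA is given.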

How the data were processed

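Per the submitters' processing notes, the build is hg38, and the tools listed include cutadapt 2.5 and deepTools 3.4.1. Which aligner, peak caller or control was used is not given in the sources used here. Deposited summit lists give 1 score per summit, a −log10 p-value or −log10 q-value as the authors' caller wrote it. The deposited ranked lists give each region a rank and, in its name, the number of joined peaks. Depth is unknown.

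The members and gene lists were chosen with earlier results of these data known, RGS20 and ITGB1 among them. Genes named were the candidates of the 30 best-ranked regions within 100 kb, the nearest genes of the 10 best farther off, genes with more than 1 member, near regions holding SP1, list members, RGS20 and the 5 regions on each side of the rank limit; HMGA2, MYC, the microRNA genes, the long noncoding RNAs and the genes of chromosome groups were chosen after their values were seen. Distances ran to RefSeq spans (GRCh38.p14); no genome was used here. Overlap needed 1 base. Scripts (Python 3.11.15, pandas 2.3.3, SciPy 1.17.1) were tested on planted positions. Rank limits, distances, windows, length, score and gene kinds were varied. 1 list member among the candidates is not reported here.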

Additional observations from a re-analysis of the deposited data

How the results depend on the processing

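Each share was recomputed under alternatives, 38 in all, of which 21 moved it beyond its counting interval or a count by over 1.5 times. The share of members with an SP1 summit (20.3%) was 30.4% in the best-ranked 5% of the list, 11.3% in the best 20%, 13.3% with SP1 summits above the median score, 13.4% in regions of 300 to 700 bases and 14.3% with H3K27ac scores under 20. Within 100 kb of a gene end (13.7%) it was 25%, 7.5%, 6.16% and 3.80% under the first 4 of these, and 6.06% in regions of 1 peak. Farther off (28.0%) it was 16.7% in the best 20% and 17.4% with scores under 20. Overlap with SP1 regions (20.7%) was 12.5% when at least 50% of the region had to be covered, 30.4% in the best 5% and 11.6% in the best 20%. The share of members over 100 kb from a gene end (46.1%) was 57.2% with a limit of 50 kb, 27.7% with 200 kb, 9.96% with genes of every kind and 52.6% in the best 5%. List genes among the candidates numbered 11 with any gene end within 50 kb and 12 in the best 20%, against 7.

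The score line of 20 and the start windows of 500 and 2500 bases (14.8% and 19.7% against 17.2%) were chosen after seeing the data. No paired analysis was possible because each antibody has 1 library. Weak SP1 summits in near regions are limited by unknown depth.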

Other observations

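A long noncoding RNA gene was overlapped by 48 members (17.7%, 13.6 to 22.7%) and 379 other regions (15.5%, 14.2 to 17.0%), against 15.8% of the whole list, and the intervals overlapped. Of the 179 members between protein-coding genes, 41 lay in such a gene. PVT1, the noncoding neighbour of MYC, contains ranks 42 and 120, MIR100HG ranks 106 and 134, and LINC-PINT ranks 146 and 168. Rank 15, the member nearest to ERRFI1, overlaps ERRFI1-DT. Rank 226, also nearest to MYC, lies 440 kb from it, and none of the 3 regions near MYC holds an SP1 summit. Rank 21 has HMGA2, an architectural chromatin protein gene, as its nearest gene, 168 kb away, and scored 7.93 and 5.77 without SP1.

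Members were unevenly spread over chromosomes. Chromosome 12 held 36 (13.3%, 9.75 to 17.8%) against 6.97% of other regions, and 3 of the 36 held an SP1 summit. Chromosome 17 held 23 (8.49%, 5.72 to 12.4%) against 2.83%, with SP1 in 9. Chromosome 14 held 14, none with SP1. Neighbours within 1 Mb joined 120 members into 43 groups, and 151 stood alone. The 2 groups of 6 members both lie on chromosome 12, around PDZRN4, PRICKLE1, GXYLT1 and YAF2 and around ANO6, ARID2, PCED1B, RPAP3 and SLC38A2, and 1 of these 12 members held an SP1 summit.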
